A study of Mus musculus with 9 samples.

Results

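Control alpha TC6 cells are described here on the 3 arrays of the series whose label reads control, out of 9 arrays in all. The rule was the label alone, and the question was which genes gave a strong, a weak or a background signal in these cells with no IRS protein lowered. Alpha TC6 is a mouse pancreatic alpha cell line from a glucagonoma that arose in a transgenic mouse whose preproglucagon promoter drove the large T antigen of a simian virus, so the cells are transformed and divide, unlike most alpha cells of an adult islet. The control cells carried a lentiviral nonsilencing short hairpin RNA, had been selected with puromycin as a stable line, and were grown in RPMI medium with fetal bovine serum. No glucose step and no insulin addition is named for the arrays. The other 6 arrays, 3 of cells with an IRS1 knockdown and 3 with an IRS2 knockdown, were not used here. Material prepared from total RNA was hybridised to Affymetrix Mouse Gene ST arrays. The labels number the 3 control samples without saying that they came from separate cultures, so every SD below (n = 3 throughout) may be technical in part.

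Alpha cells are the glucagon cells of the islet. When blood glucose falls they release glucagon, which makes the liver put out glucose, and amino acids and adrenaline also drive release while insulin and somatostatin restrain it. Glucagon is cut from proglucagon by prohormone convertase 2, encoded by Pcsk2, inside dense granules whose matrix is made of granins. Excitable membranes with KATP, sodium and calcium channels couple fuel state to granule release, and transcription factors such as Pax6, Foxa2, Isl1 and Neurod1 keep the glucagon gene active.

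Signals are given in log2 RMA units, 1 probe set per gene, for 22180 genes named by a single symbol. A signal percentile is the place of a gene among all genes of the same array, averaged over the 3 arrays. It orders signals and not transcript numbers, because probe sets differ in how well they hybridise, so no gene is ranked against another one by abundance here. The background was taken from 1394 olfactory and vomeronasal receptor genes, which sense odours and pheromones in the nose. A gene was above the background bound when its signal exceeded the 95th percentile of these receptor genes on all 3 arrays, at 4.99, 4.96 and 4.95 on control replicates 1, 2 and 3. A stricter bound, their 99th percentile, lay at 6.00, 6.00 and 5.91.

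By the first bound 12789 genes, 57.7% of all, were above background, and by the stricter one 9515 genes, 42.9%. The receptor genes had a median signal between 2.73 and 2.74 on the 3 arrays, and the median over all probe sets lay between 5.08 and 5.09. Protein-coding genes were above the bound in 62.4% of 18964 cases, small nucleolar RNA genes in 88.8% of 80, long noncoding RNA genes in 26.9% of 1926 and microRNA hairpin genes in 25.5% of 478. The share of all genes, used below beside each list, thus lies under that of protein-coding genes. Both shares include receptor genes that set the bound, and 56 of these 1394 were above it on all 3 arrays. Only 826 genes, 3.72%, exceeded a signal of 10 on every array, and 9 exceeded 13. Whether the receptor genes stand for the background of other probe sets was not tested, so a signal between the 2 bounds is given below as low. The brightest probe set of any array reached 13.53 to 13.56, and signals near that ceiling hold little information on order.

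**Figure D1:**
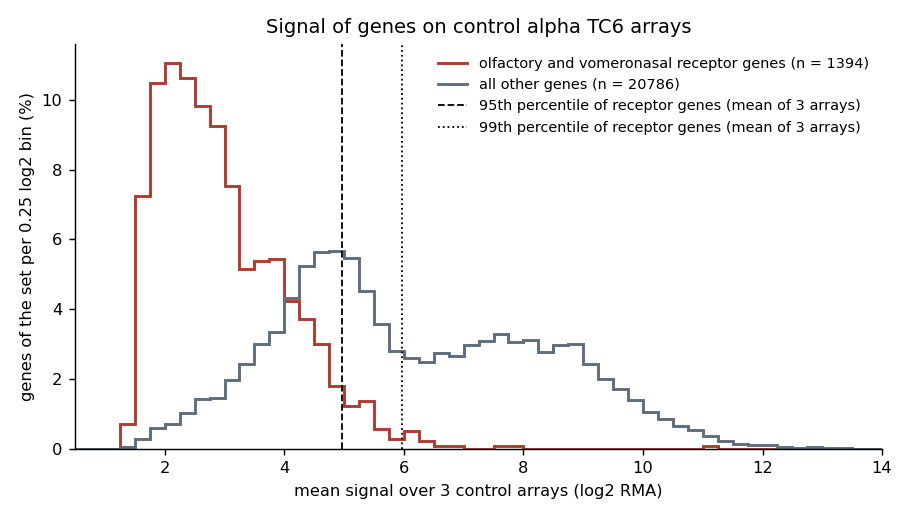
Share of genes per 0.25 log2 bin of mean signal over the 3 control arrays, for 1394 olfactory and vomeronasal receptor genes and for the 20786 other genes. Dashed and dotted lines mark the mean 95th and 99th percentile of the receptor genes; most receptor genes lie below 5, while the other genes spread up to about 13.5.

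Glucagon had the brightest signal of any hormone gene. Gcg read 13.25, 13.25 and 13.23 on the 3 arrays, with rank 3 among all genes on each of them, at percentile 99.99. Ttr, the thyroid hormone carrier transthyretin that mouse alpha cells make, read 12.80, 12.74 and 12.85 with ranks 17, 17 and 12. Both genes lay in the uppermost part of every array with SDs of 0.0075 and 0.057. Pcsk2, the third marker of the cell type, is not analysed here because no probe set of a single symbol carries its name in the annotation used.

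Of 20 alpha cell markers, 16 had a probe set, and all 16 were above the bound on every array, with a median percentile of 85.0. The background share over all genes was 57.7%. By the stricter bound 13 of the 16 remained above, against 42.9% of all genes. Peg3, an imprinted zinc finger gene, read 12.55, 12.61 and 12.55. The glutamine transporter Slc38a5, which alpha cells turn up when amino acids are plentiful, read 11.61, 11.65 and 11.57. Irx2 and Irx1, homeobox factors that mark alpha cells among islet cells, averaged 9.78 ± 0.07 and 9.21 ± 0.10. Dpp10, a surface protein that binds potassium channels, averaged 9.57 ± 0.03, and Gria3, an AMPA glutamate receptor subunit, 8.77 ± 0.11. Pou3f4, a POU homeobox factor of early alpha cells, had 8.22, 8.28 and 8.23. Weakest were Kcnj3 with 5.85 ± 0.05, Loxl4 with 5.50 ± 0.01 and the somatostatin receptor Sstr2 with 5.31 ± 0.14, all between the 2 bounds.

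The start of the glucagon gene is shown because its product gave the strongest hormone signal. Upstream bases are from RefSeq on GRCm38.p6, 5′ to 3′ on the strand of the gene and ending at the base before the annotated start. Capitals mark TATAAA, the core of the TATA box, searched on both strands.
Gcg (chr2:62483654-62483903, minus strand): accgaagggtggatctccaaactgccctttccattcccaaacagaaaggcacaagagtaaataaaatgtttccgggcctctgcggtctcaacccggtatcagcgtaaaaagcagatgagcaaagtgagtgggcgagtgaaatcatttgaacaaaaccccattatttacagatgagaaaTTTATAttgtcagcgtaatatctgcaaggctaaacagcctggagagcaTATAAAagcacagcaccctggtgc
TATAAA stood on the gene's strand with its first base at position -24 and on the opposite strand at -72. A window of 250 bases before to 50 after the start held TATAAA in 14.3% of 16918 genes. Among hormone genes with such a window 15 of 52 held it, 28.8%, and among genes not above the bound 22.8% did. A match of letters is no measured binding site.

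Islet lineage transcription factors were mostly above background. Of 41 measured, 35 were above the bound, 85.4% against 57.7% of all genes, with a median percentile of 69.1. The stricter bound was passed by 27, 65.9% against 42.9%. Etv1, an ETS factor, read 11.32, 11.38 and 11.43, and Isl1, a LIM homeobox factor of all islet endocrine cells, read 11.13, 11.14 and 11.15. Foxp1, a forkhead factor, averaged 10.09 ± 0.04, and Nkx2-2, a homeobox factor needed for alpha as well as beta cells, 9.43 ± 0.03. Rfx6, which acts upstream in endocrine differentiation, averaged 9.18 ± 0.06. The activators of the glucagon gene Pax6, Foxa2 and Neurod1 averaged 8.90 ± 0.04, 8.83 ± 0.03 and 7.64 ± 0.09. The zinc finger factors Tshz1 (9.27 ± 0.05) and Zbtb20 (8.96 ± 0.03) and the HMG box factor Sox4 (8.77 ± 0.07) completed the 10 brightest of the list. Of the list 6 were not above the bound, with means from 3.87 to 4.82. Pax4, which opposes the alpha cell fate during development, read 4.65, 4.54 and 4.59. Hnf4a at 5.49 ± 0.10 and Neurog3, the factor of endocrine progenitors, at 5.24 ± 0.06 were low.

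Markers of other islet cells ranged from bright to background. Of 17 measured beta cell markers 11 were above the bound, 64.7%, and 7 above the stricter one, 41.2%, with a median percentile of 53.6. Both shares were near those of all genes, 57.7% and 42.9%. Insulin was not among the markers above the bound. Ins2 read 4.06, 4.23 and 3.90 on the 3 arrays, all under the bound, and Ins1 was not analysed here. Iapp, the amylin co-secreted with insulin, read 4.86, 4.61 and 4.86, Ucn3, a peptide of mature beta cells, 4.94, 4.86 and 4.93, and the glucose transporter Slc2a2 5.00, 4.95 and 4.85. None of these was above the bound on all 3 arrays. Bright members of the list were Slc30a8, the granule zinc transporter ZnT8 that alpha cells also carry, with 10.97, 11.05 and 11.11, Robo2 with 8.51 ± 0.05 and G6pc2, an islet glucose-6-phosphatase, with 8.40 ± 0.03. The beta cell transcription factors Nkx6-1 and Mafa averaged 8.05 ± 0.03 and 6.80 ± 0.13, above the stricter bound on each array, while Pdx1 averaged 5.54 ± 0.07, between the bounds. Ero1b, an oxidase of the endoplasmic reticulum, averaged 7.77 ± 0.04 and the G protein subunit Gng12 7.05 ± 0.07. Npy (6.18 ± 0.23), the channel Trpm5 (5.75 ± 0.04) and the incretin receptor Glp1r (5.39 ± 0.08) were the remaining members above the bound. In bulk RNA a few cells with much of a transcript and many cells with little of it cannot be told apart.

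Of 12 markers of delta, PP and epsilon cells 9 were above the bound, 75%, and 4 above the stricter one, 33.3%, the second share being under the 42.9% of all genes. The hormone genes of these cells were low. Sst, somatostatin, read 5.46, 5.36 and 5.48, Ppy, pancreatic polypeptide, 5.70, 5.75 and 5.56, and Ghrl, ghrelin, 5.03, 5.28 and 5.06, all between the bounds, while Pyy at 4.64 ± 0.13 was not above the first. The delta cell factor Hhex averaged 5.08 ± 0.02 and the tetraspanin Cd9 5.57 ± 0.11. The 4 above the stricter bound were as follows. Rbp4, the retinol carrier, read 11.96, 12.01 and 11.97, the sodium pump regulator Fxyd6 averaged 9.84 ± 0.05, Ghsr, the ghrelin receptor, 7.56 ± 0.06, and Sema3e, a semaphorin, 7.15 ± 0.10. Lepr, the leptin receptor, was near the bottom of the arrays with 2.46, 2.72 and 2.71.

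**Figure D2:**
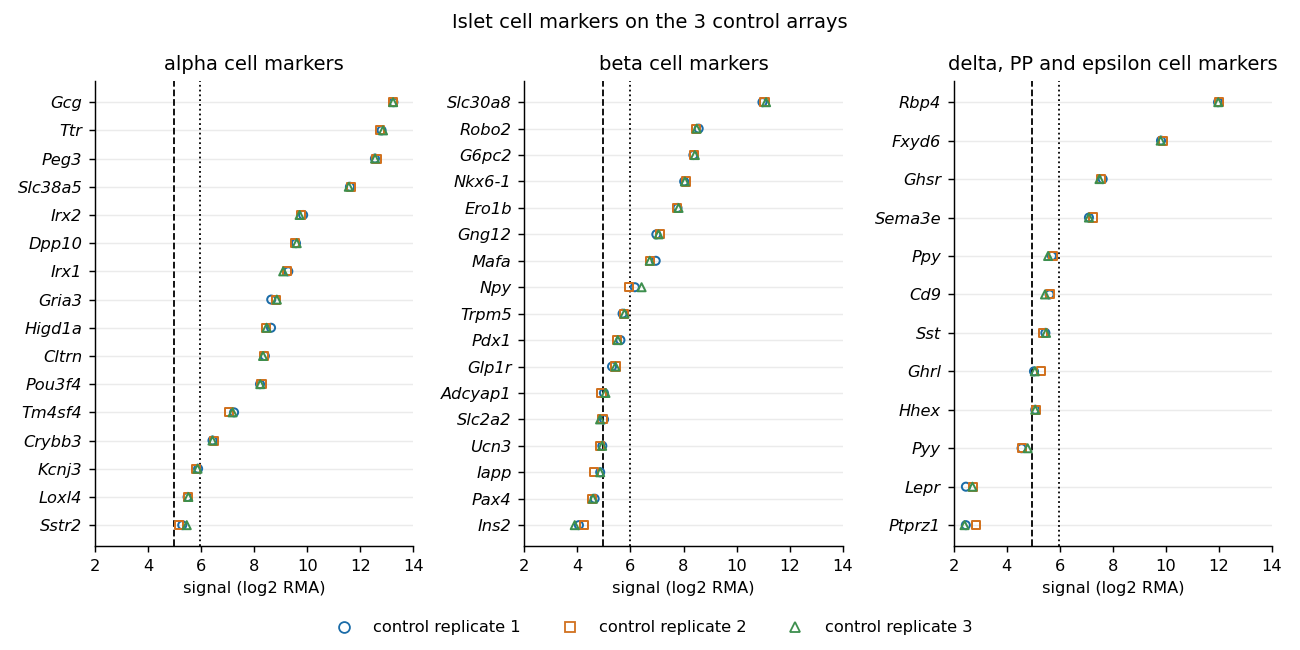
Signal of every measured alpha (16), beta (17) and delta, PP and epsilon (12) cell marker on control replicates 1, 2 and 3. Lines mark the background bound (dashed) and the stricter bound (dotted); all 16 alpha markers lie right of the dashed line, and Ins2, Iapp, Ucn3 and Pyy lie left of it.

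Cell types outside the endocrine islet gave mostly background. Of 16 exocrine and ductal markers 6 were above the bound and 3 above the stricter one, with a median percentile of 26.6. Both shares, 37.5% and 18.75%, were under the 57.7% and 42.9% of all genes. Acinar enzyme genes were mostly dim, with Cela1 and Ctrb1 as exceptions. Cpa1 averaged 4.36 ± 0.06, Cpb1 2.82 ± 0.02, Prss2 2.49 ± 0.27 and Amy2b 1.82 ± 0.39, and the acinar factor Ptf1a 4.25 ± 0.20. Above the bound were Sox9 (7.13 ± 0.16), a factor of duct cells, Krt7 (6.08 ± 0.06), the acinar enzyme genes Cela1 (6.06 ± 0.03) and Ctrb1 (5.65 ± 0.09), Rbpjl (5.58 ± 0.33) and Bhlha15 (5.21 ± 0.09).

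Of 11 endothelial markers 4 were above the bound, Egfl7 (6.12 ± 0.07), Plvap (5.53 ± 0.13), Flt1 (5.15 ± 0.17) and Pecam1 (5.10 ± 0.04), and only Egfl7 passed the stricter one. Of 11 immune markers 4 were above, Cd68 (5.93 ± 0.15), Csf1r (5.21 ± 0.09), Fcer1g (5.21 ± 0.14) and Cd79a (5.17 ± 0.16), and none passed the stricter bound. Ptprc, the pan-leukocyte phosphatase CD45, was dim with 3.42, 3.27 and 3.34. Of 12 fibroblast and stellate markers 5 were above, Acta2 (6.14 ± 0.04), Col1a1 (5.62 ± 0.05), Vim (5.58 ± 0.14), Col1a2 (5.47 ± 0.11) and Thy1 (5.34 ± 0.03), with Acta2 alone above the stricter bound. Median percentiles were 40.3, 33.8 and 41.4 for the 3 lists, and each share above the bound, 36.4%, 36.4% and 41.7%, was under the 57.7% of all genes.

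The 30 brightest genes spanned mean signals from 12.24 to 13.48, and 29 of them were in the top 30 of every array. Rn7sk, the small nuclear RNA 7SK that holds back transcription elongation, read 13.52, 13.49 and 13.44. Genes of the mitochondrial genome supplied 9 of the 30, namely ND4, COX1, ND3, ND5, CYTB, ND1, COX3, ND4L and ND2, which encode subunits of the respiratory chain, with means from 12.81 to 13.40. The 1 further mitochondrial gene with a probe set of a single symbol, ND6, averaged 10.26. Nuclear genes of mitochondria in the set were Cox6a1 (12.98), Atp5b (12.49) and Vdac3 (12.46).

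Secretory genes among the 30 were Gcg, Ttr and Chga, chromogranin A of the granule matrix, which read 12.58, 12.60 and 12.69. Ost4 (12.32), a subunit of the oligosaccharyltransferase, and Hsp90b1 (12.24), a chaperone of the endoplasmic reticulum, belonged to the same route. The others were the glycolytic enzyme Gapdh (12.92), the small nucleolar RNA Snora33 (12.89), the microRNA hairpin Mir5099 (13.07), the chromatin protein Ptma (12.81), the ribosomal proteins Rpl21 (12.68) and Rpl28 (12.30), Peg3 (12.57), the tubulin Tubb5 (12.43), the iron store Fth1 (12.41), the metallothionein Mt2 (12.41), the long noncoding RNA Gm12718 (12.39) and the elongation factor Eef1a1 (12.30). SDs within the set lay between 7.03e-05 and 0.074. Neighbours in this order often changed places between arrays, as Ttr did, so the order inside the set is loose. The set also rests on taking the brightest probe set of a gene. With the mean of all probe sets of a gene 22 of the 30 remained in it. Gm12718 had a second probe set at 4.40, under the bound, and Snora33 a second at 6.30.

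**Figure D3:**
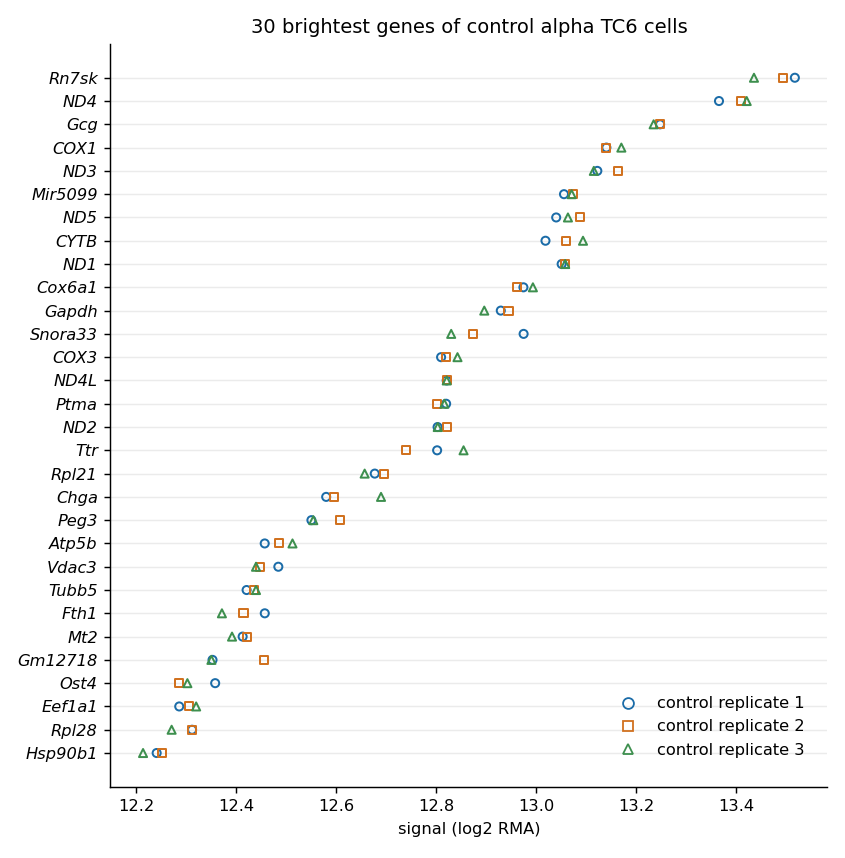
Signal of the 30 brightest genes on control replicates 1, 2 and 3, ordered by mean. 9 are genes of the mitochondrial genome; Gcg has rank 3 and Ttr rank 17, and the 3 arrays of a gene differ by less than the span of the set, 12.2 to 13.5.

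Among 63 hormone and peptide genes Gcg alone exceeded a signal of 9. Of the list 32 were above the bound, 50.8%, against 57.7% of all genes and 62.4% of protein-coding genes. The stricter bound was passed by 7, 11.1%, under the 42.9% of all genes, and the median percentile was 43.5. After Gcg came Vgf, a peptide precursor of neuroendocrine granules, with 8.82, 8.81 and 8.80, and Nxph1, a neurexin ligand, with 8.74, 8.69 and 8.69. Cartpt, the CART peptide that islet cells can make, read 8.18, 8.10 and 8.10, and Adm2, a calcitonin family peptide, 7.35, 7.12 and 7.18. Gip read 6.32, 6.31 and 6.41 and Gast 6.27, 6.17 and 6.11, incretin and gastrin genes of the gut, the last of the 7 past the stricter bound. Npy averaged 6.18 ± 0.23, Cck 5.98 ± 0.19 and Penk, proenkephalin, 5.96 ± 0.01. A group of 25 members passed the first bound only, Sst, Ppy and Ghrl among them. Vip (4.21 ± 0.18), Gal (4.86 ± 0.04) and Tac1 (4.18 ± 0.10) were not above the bound.

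Granins and other granule genes were bright as a list. Of 26 measured, 23 were above the bound and 22 above the stricter one, with a median percentile of 92.8. These are 88.5% and 84.6%, against 57.7% and 42.9% of all genes. After Chga, the granule phosphatase-like protein Ptprn read 12.17, 12.15 and 12.17, secretogranin 2 (Scg2) 11.73, 11.73 and 11.78, chromogranin B (Chgb) 11.36, 11.36 and 11.36 and Resp18, an endocrine granule protein, 11.33, 11.39 and 11.35. Scg3, which tethers granins to the granule membrane, averaged 10.43 ± 0.02. The proton pump accessory genes Atp6ap1 and Atp6ap2 averaged 10.90 ± 0.08 and 10.37 ± 0.03, and the complexin Cplx1 10.07 ± 0.04. Slc18a2, the vesicular monoamine transporter, had 4.50 ± 0.01 and was not above the bound, nor were Sytl4 (4.73 ± 0.08) and Cadps2 (4.14 ± 0.03).

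Upstream sequences of the granin genes Scg2 and Chgb are shown since both are among the 100 brightest protein-coding genes with a promoter window and share a motif there. Capitals mark TGACGTCA, the palindromic cAMP response element read by CREB factors, which is the same on both strands.
Scg2 (chr1:79440027-79440276, minus strand): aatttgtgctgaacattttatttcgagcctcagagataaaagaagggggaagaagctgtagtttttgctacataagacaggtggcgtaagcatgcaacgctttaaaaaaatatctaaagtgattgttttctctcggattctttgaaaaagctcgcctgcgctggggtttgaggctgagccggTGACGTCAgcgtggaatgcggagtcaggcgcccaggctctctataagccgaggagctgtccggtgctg
Chgb (chr2:132781392-132781641, plus strand): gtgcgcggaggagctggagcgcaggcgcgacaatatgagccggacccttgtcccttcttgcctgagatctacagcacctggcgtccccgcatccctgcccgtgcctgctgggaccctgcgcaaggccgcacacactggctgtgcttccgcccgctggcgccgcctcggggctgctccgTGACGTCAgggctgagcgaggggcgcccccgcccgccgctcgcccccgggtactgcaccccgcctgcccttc
The element began at -68 in Scg2 and at -72 in Chgb. Its full letters stood in the windows of 2.64% of 16918 genes, of 9 of the 100 brightest protein-coding genes, of 3 of 23 granule genes (Slc18a2 is the third) and of 1.22% of genes not above the bound. The Gcg window, which reaches 250 bases upstream, did not hold these 8 letters, and bases further upstream were not searched. These counts describe letters in a window and were not tested.

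Prohormone processing was divided by enzyme. Of 24 genes measured 19 were above the bound, 79.2%, and 17 above the stricter one, 70.8%, against 57.7% and 42.9% of all genes. Pam, which amidates peptide ends, read 11.74, 11.71 and 11.71, and Cpe, the carboxypeptidase that trims basic residues after the convertases, 11.51, 11.59 and 11.58. Pcsk1, the convertase that releases GLP-1 from proglucagon in gut L cells, read 3.95, 3.96 and 3.95 and was not above the bound. Helpers and regulators of the convertases were bright. Scg5, the chaperone 7B2 of convertase 2, averaged 9.31 ± 0.05 and Pcsk1n, an inhibitor of convertase 1, 9.41 ± 0.08. The general convertase Furin averaged 8.20 ± 0.02. Cathepsins Ctsb (10.64 ± 0.06) and Ctsl (10.53 ± 0.07) and the peptidases Ide (10.51 ± 0.05), Nrd1 (10.30 ± 0.0032), Prep (9.75 ± 0.01), Ece1 (9.38 ± 0.01) and Mme (8.56 ± 0.07), neprilysin, had strong signals. Dpp4, which cuts incretins, read 3.31, 3.64 and 3.27, at background.

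The secretory route before the granule gave strong signals for nearly all of its genes. Of 51 genes of the endoplasmic reticulum and early transport 50 were above the bound and 49 above the stricter one. Among all genes the shares were 57.7% and 42.9%, here 98.0% and 96.1%, with a median percentile of 93.3. Calreticulin (Calr) read 11.78, 11.81 and 11.83 and the translocon subunit Sec61a1 11.62, 11.61 and 11.68. The disulfide isomerases Pdia3 and P4hb averaged 11.49 ± 0.04 and 11.19 ± 0.03, and the chaperone Hspa5, BiP, 9.46 ± 0.02. The unfolded protein sensors Atf6 and Ern1 averaged 9.81 ± 0.05 and 9.02 ± 0.02, and the stress response factors Xbp1 and Atf4 9.52 ± 0.01 and 10.08 ± 0.09. Kdelr3 alone was not above the bound, at 5.01 ± 0.11.

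Exocytosis genes were above the bound in 51 of 61 cases, 83.6%, and above the stricter one in 42, 68.9%. All genes had 57.7% and 42.9%. Snap25, the plasma membrane SNARE of regulated release, read 11.39, 11.44 and 11.47. Its partners Vamp2 and Stx1a averaged 8.12 ± 0.03 and 7.93 ± 0.05. Among synaptotagmins, Syt13 read 10.34, 10.29 and 10.34, Syt4 averaged 10.03 ± 0.03 and the calcium sensor Syt7 of alpha cell granules 8.60 ± 0.0046, while Syt10 at 4.82 ± 0.30 was not above the bound. The Rab effectors Sytl5 and Sytl2 averaged 10.27 ± 0.10 and 10.05 ± 0.02, and Rab3a and Rab27a 9.22 ± 0.06 and 8.68 ± 0.02.

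G protein-coupled receptors were mostly dim. Of 101 measured, 44 were above the bound, 43.6%, and 18 above the stricter one, with a median percentile of 40.3. Gpr119, a receptor for lipid amides that raises cAMP, had the highest signal of the list with 10.09, 10.03 and 10.02. Hcar1, the lactate receptor, read 9.80, 9.88 and 9.84, and Oxtr, the oxytocin receptor, 9.09, 9.21 and 9.21. The vasopressin receptor Avpr1b, through which vasopressin stimulates glucagon release, read 8.36, 8.28 and 8.10. Gprc5b (7.66 ± 0.12), Ghsr (7.56 ± 0.06), the fatty acid receptor Ffar4 (7.29 ± 0.09), the thrombin receptor F2r (7.22 ± 0.08), Cckbr (7.15 ± 0.11) and Npy1r (7.06 ± 0.11) followed. Incretin and glucagon receptors were low. Glp1r read 5.30, 5.44 and 5.44, Gipr 5.34, 5.35 and 5.28 and Gcgr 5.36, 5.20 and 5.17, all between the bounds. Somatostatin receptors differed in where they stood, Sstr3 with 6.77 ± 0.15 above the stricter bound and Sstr2 with 5.31 ± 0.14 between the bounds. Ffar1, a fatty acid receptor known from beta cells, read 4.72, 4.84 and 4.96 and was not above the bound on all 3 arrays.

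Of 100 other receptors, ligand-gated channels and nuclear receptors, 56 were above the bound and 39 above the stricter one, and these shares, 56% and 39%, were near the 57.7% and 42.9% of all genes. The interleukin 1 receptor Il1r1 read 12.19, 12.16 and 12.12, the brightest of the list, and Bmpr2 10.65, 10.69 and 10.72. Glrb, the beta subunit of glycine receptors, read 9.76, 9.76 and 9.87, while the alpha subunits Glra1, Glra2 and Glra3 averaged 4.25 ± 0.09, 4.10 ± 0.06 and 3.75 ± 0.11, none above the bound. Glutamate receptors of the AMPA class were divided likewise. Gria2 read 8.82, 8.87 and 9.11 and Gria3 8.64, 8.81 and 8.85, whereas Gria1 averaged 4.54 ± 0.04, at background. GABA-A receptor subunits measured on the arrays, from Gabrg1 (2.73 ± 0.38) to Gabra5 (4.52 ± 0.13), were not above the bound. Il6st, the shared chain of interleukin 6 receptors, averaged 9.63 ± 0.02, Tnfrsf1a 9.60 ± 0.02 and the ATP-gated channel P2rx4 9.38 ± 0.05. Nuclear receptors in the upper part were Nr3c1, the glucocorticoid receptor, with 8.88 ± 0.08, the clock repressor Nr1d1 with 8.88 ± 0.04 and Ppard with 8.78 ± 0.06.

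Insulin signaling genes gave signals from the receptor to its kinases. Of 51 measured 45 were above the bound and 42 above the stricter one, with a median percentile of 80.6. Their shares were 88.2% and 82.4%, against 57.7% and 42.9% of all genes. The insulin receptor Insr read 7.82, 7.90 and 7.90. Igf1r, its relative for insulin-like growth factors, read 4.66, 4.82 and 4.51, under the bound on every array. Both adaptors that the study lowered in its other cell lines were above the stricter bound in the control cells. Irs1 read 8.06, 8.09 and 8.07 and Irs2 10.72, 10.64 and 10.58. Irs1 rests on the brighter of 2 probe sets, and the dimmer one averaged 5.29. Irs3 was low at 5.23 ± 0.11 and Irs4 at background at 4.49 ± 0.19. Grb10, an adaptor that restrains the insulin receptor, had the highest signal of the list with 11.47, 11.52 and 11.49. Pik3r1 averaged 10.39 ± 0.05, Akt1 9.83 ± 0.05, Gsk3b 10.48 ± 0.0048 and Foxo1 7.99 ± 0.09. The translation factor Eif4e (10.68 ± 0.02), its repressor Eif4ebp1 (9.83 ± 0.06), the kinase Braf (10.40 ± 0.04), the GTPase Rheb (10.10 ± 0.01) and the mTOR inhibitor Deptor (9.69 ± 0.02) were also among the 10 brightest.

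Potassium channel genes passed the stricter bound less often than all genes did. Of 80 measured 40 were above the first bound, 50%, against 57.7% of all genes and 62.4% of protein-coding genes. The stricter one was passed by 19, 23.8%, under the 42.9% of all genes, both KATP subunits among them. Abcc8, the sulfonylurea receptor subunit, read 10.14, 10.11 and 10.21, and Kcnj11, its pore, 7.93, 7.98 and 7.81. Kcnma1, the BK channel opened by calcium, read 10.34, 10.18 and 10.26, from the brighter of 2 probe sets, with the dimmer at 5.88. Kcnh6 and Kcnh2, channels of the ERG family, averaged 8.99 ± 0.04 and 8.27 ± 0.02. Kcnk16, a leak channel of islet cells, averaged 8.71 ± 0.05, the leak channel Kcnk1 9.44 ± 0.06 and the A-type channel Kcna4 8.87 ± 0.08. Hcn2, a pacemaker channel, averaged 8.47 ± 0.03, and the auxiliary subunits Kcnip3 8.28 ± 0.06, and Kcnab2 8.13 with the same value on all 3 arrays.

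Calcium channels and pumps were above the bound in 44 of 68 cases, 64.7%, and above the stricter one in 23, 33.8%, against 57.7% and 42.9% of all genes. Atp2a2, the SERCA pump that refills the endoplasmic reticulum, read 11.49, 11.49 and 11.49, and Atp2b1, a pump of the plasma membrane, 10.84, 10.89 and 10.84. Cacng7, a gamma subunit that also attends AMPA receptors, read 10.32, 10.06 and 10.14. The L-type pore Cacna1c read 9.49, 9.41 and 9.46, and the other islet L-type pore, Cacna1d, averaged 6.10 ± 0.02. N-type and P/Q-type pores were low, Cacna1b with 5.24 ± 0.03 and Cacna1a with 5.13 ± 0.06, and the R-type pore Cacna1e at 4.31 ± 0.09 was not above the bound. Cacna2d1, an auxiliary subunit, averaged 8.97 ± 0.05, the store sensor Stim2 10.55 ± 0.02, Trpm7 9.39 ± 0.03, the Golgi pump Atp2c1 8.36 ± 0.06, the mitochondrial uniporter Mcu 8.17 ± 0.02 and the lysosomal channel Tpcn1 7.76 ± 0.02.

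Sodium and chloride channel genes were above the bound in 26 of 50 cases, 52%, and above the stricter one in 24, 48%, against 57.7% and 42.9% of all genes. Scn9a read 7.74, 7.68 and 7.80, Scn8a 7.51, 7.45 and 7.51 and Scn3a 6.40, 6.45 and 6.25, pores of voltage-gated sodium channels, and Scn2a at 4.23 ± 0.17 was not above the bound. Unc80 read 9.70, 9.70 and 9.74 and Unc79 averaged 8.78 ± 0.03, both partners of the leak channel Nalcn, whose own signal of 4.03, 4.14 and 4.04 was under the bound. The sodium pump subunit Atp1b1 read 12.09, 12.07 and 12.09. Slc12a2, which loads cells with chloride, averaged 9.34 ± 0.03, the scramblase Ano6 9.08 ± 0.01 and the exchanger Clcn6 8.99 ± 0.06, and the volume-regulated channel genes Lrrc8c, Lrrc8b and Lrrc8a ranged from 8.36 to 8.91.

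Of 77 genes of glucose transport and glycolysis 63 were above the bound, 81.8% against 57.7% of all genes. Past the stricter bound were 51, 66.2% against 42.9%, and the median percentile was 69.4. Slc2a1, the transporter GLUT1 that alpha cells use, read 9.22, 9.22 and 9.24, from the brighter of 2 probe sets with the dimmer at 5.20. Slc2a4, the insulin-responsive transporter, had 4.85 ± 0.03, under the bound. Hexokinase 1 (Hk1) averaged 7.24 ± 0.02. Further down the pathway Pfkp read 10.61, 10.64 and 10.64, Tpi1 averaged 11.31 ± 0.06, Pgk1 11.07 ± 0.04 and Pkm 10.83 ± 0.02. Ldha, the lactate dehydrogenase subunit that islet beta cells keep low, read 5.82, 5.54 and 5.84 and Ldhb 7.91, 7.97 and 8.03. The lactate and pyruvate carrier Slc16a1, another gene silent in beta cells, read 9.80, 9.86 and 9.82. Mitochondrial entry was bright, with Mdh2 at 11.91 ± 0.0022, Got2 at 11.75 ± 0.01 and the pyruvate carrier Mpc1 at 11.47 ± 0.04.

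Of 69 genes of the TCA cycle, fatty acid and ketone oxidation 62 were above the bound, 89.9% against 57.7% of all genes. Past the stricter bound were 59, 85.5% against 42.9%, and the median percentile was 87.3. Idh3b, Idh3g, Cs and Ogdh, enzymes of the cycle, averaged 11.25 ± 0.08, 11.23 ± 0.03, 11.17 ± 0.04 and 11.08 ± 0.04. Ppargc1a, a coactivator of mitochondrial genes, read 10.86, 10.91 and 10.85. The ketone-using enzyme Oxct1 read 10.80, 10.78 and 10.78 and lipoprotein lipase (Lpl) 10.92, 10.93 and 10.86. Acly averaged 10.92 ± 0.04, Idh2 10.77 ± 0.01 and the AMPK subunit Prkaa1 10.77 ± 0.08. Cpt1a, the gate for fatty acid entry into mitochondria, averaged 9.04 ± 0.13. Cd36, a fatty acid translocase, and Fabp4, a fatty acid binding protein of fat cells, were at background with 3.16 ± 0.07 and 2.96 ± 0.11.

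Amino acid genes were led by transporters. Of 64 genes 49 were above the bound, 76.6%, and 39 above the stricter one, 60.9%, against 57.7% and 42.9% of all genes. Besides Slc38a5, the system A and N transporters Slc38a4, Slc38a2 and Slc38a1 averaged 11.62 ± 0.04, 10.32 ± 0.02 and 10.19 ± 0.01. The neutral amino acid exchanger Slc7a5 read 11.33, 11.32 and 11.30 and its heavy chain Slc3a2 11.17, 11.17 and 11.16. Slc7a2, a carrier of arginine, a classic trigger of glucagon release, read 10.74, 10.81 and 10.84. Asns, asparagine synthetase, averaged 10.91 ± 0.05, Glul 10.06 ± 0.06 and Glud1, glutamate dehydrogenase, 9.53 ± 0.01. The carriers Slc36a4 (10.39 ± 0.03) and Slc7a14 (10.11 ± 0.03) were among the 10 brightest. Vesicular glutamate transporters were dim, Slc17a6 at 4.16 ± 0.12 and Slc17a7 at 4.74 ± 0.12, neither above the bound, and Slc17a8 at 5.29 ± 0.07, between the bounds.

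Plasma protein genes known from liver were mostly at background, with Ttr and Rbp4 as the bright exceptions. Of 30 measured 12 were above the bound, 40%, and 5 above the stricter one, 16.7%, with a median percentile of 29.6. Both shares were under the 57.7% and 42.9% of all genes. Albumin (Alb) read 7.16, 7.11 and 7.02, Apoa2 averaged 6.65 ± 0.18 and Apoe 6.51 ± 0.03. Apob at 4.37 ± 0.14, Ambp at 3.62 ± 0.0035 and the fibrinogen genes Fga, Fgb and Fgg, from 2.95 to 3.92, were not above the bound.

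Cell cycle genes were bright. Of 42 measured 40 were above the bound and 35 above the stricter one, with a median percentile of 92.7. That is 95.2% and 83.3%, against 57.7% and 42.9% of all genes. Mki67, present in cycling cells, read 11.19, 11.27 and 11.20, Pcna 11.49, 11.46 and 11.48 and Cdk4 11.47, 11.46 and 11.46. Ccna2 averaged 11.15 ± 0.01, Top2a 11.12 ± 0.03 and Rrm1 10.95 ± 0.06, and the replication helicase genes Mcm2, Mcm3, Mcm5 and Mcm6 ranged from 10.42 to 10.87. D-type cyclins were uneven, Ccnd3 with 7.15 ± 0.08 and Ccnd1 with 5.08 ± 0.09. Cdk6, the other partner of the D cyclins, read 3.43, 2.84 and 2.88, at background. Inhibitors of the cycle were above the bound as well, Cdkn2a with 9.57 ± 0.07, Cdkn2c with 9.61 ± 0.03 and Cdkn1a with 9.22 ± 0.13. All 26 housekeeping genes were above the stricter bound, against 42.9% of all genes, with a median percentile of 98.6.

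**Figure D4:**
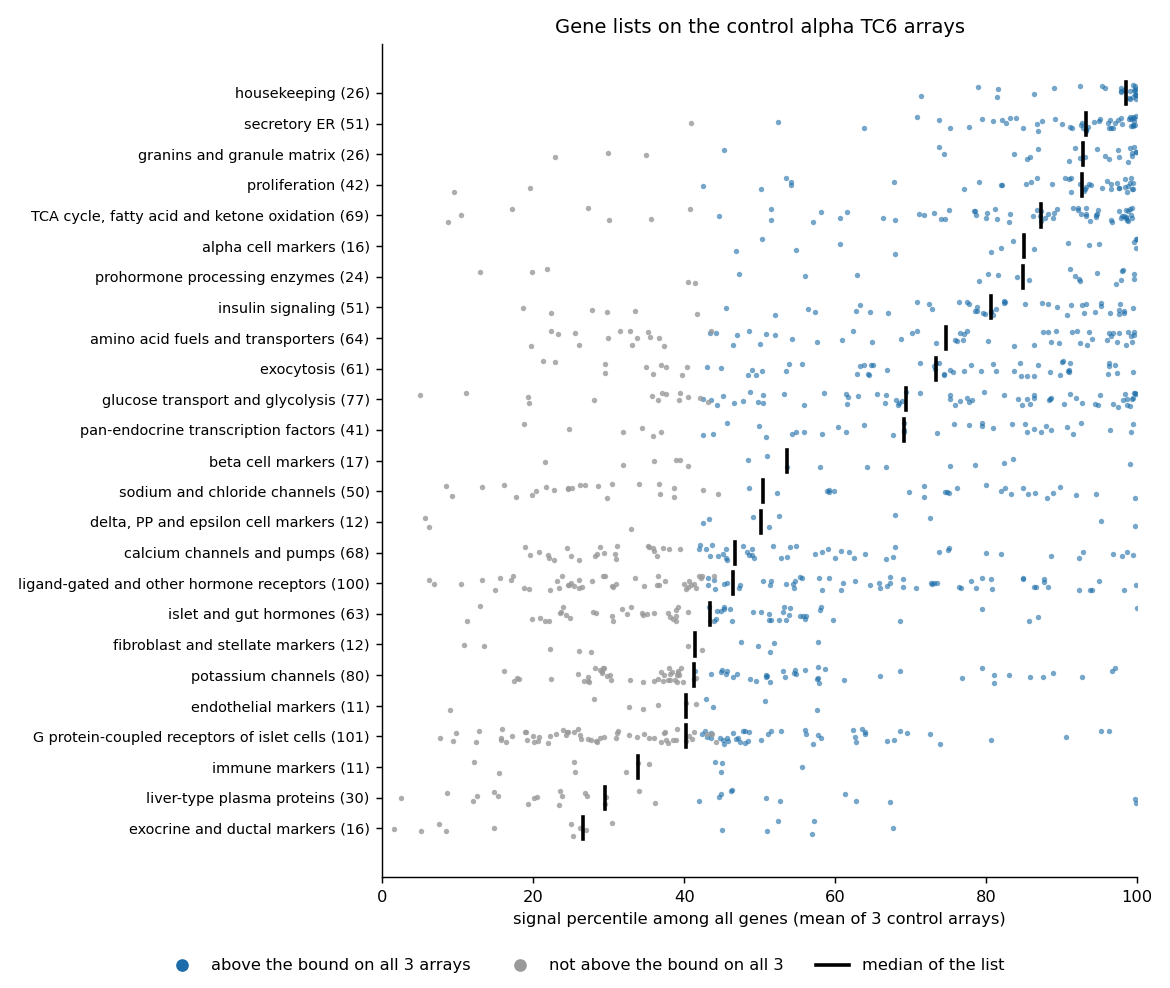
Signal percentile of every measured member of the 25 gene lists among all 22180 genes, as the mean of the 3 control arrays, with the number of members in brackets and the list median as a black bar. Housekeeping, endoplasmic reticulum, granule and proliferation genes sit at the right, with medians of 92.7 to 98.6, and exocrine, liver-type and immune genes at the left, with medians of 26.6 to 33.8.

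The 3 control arrays were close to each other. Across genes each pair of arrays had a Pearson r of 0.997 and a Spearman rho of 0.996, which describe genes that share arrays and are no replicates. The median SD between arrays was 0.073 over all genes, 0.055 over genes above the bound and 0.11 over the others. In the lowest decile of signal the median SD was 0.13, and in the highest decile 0.035. The same value to 4 decimals stood on all 3 arrays for 461 genes, Kcnab2 among them. The largest SD among genes above the bound belonged to Snora30, a small nucleolar RNA, which read 6.71, 6.81 and 5.69, with control replicate 3 below the other two. Snora35 followed with 5.91, 5.03 and 5.36 and Gm2696 with 5.05, 5.10 and 5.85. The rest of the 10 most variable, 1700120C14Rik, Gstm7, 9030025P20Rik, Mthfd2l, Rsph3a, Gal3st2 and Mir16-2, had mean signals from 5.54 to 6.01 and SDs from 0.37 to 0.44. No hormone, receptor, channel or fuel gene of the lists was among these 10. All lists together held 1073 of the 22180 genes, so an absence from a set of 10 says little about them.

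**Figure D5:**
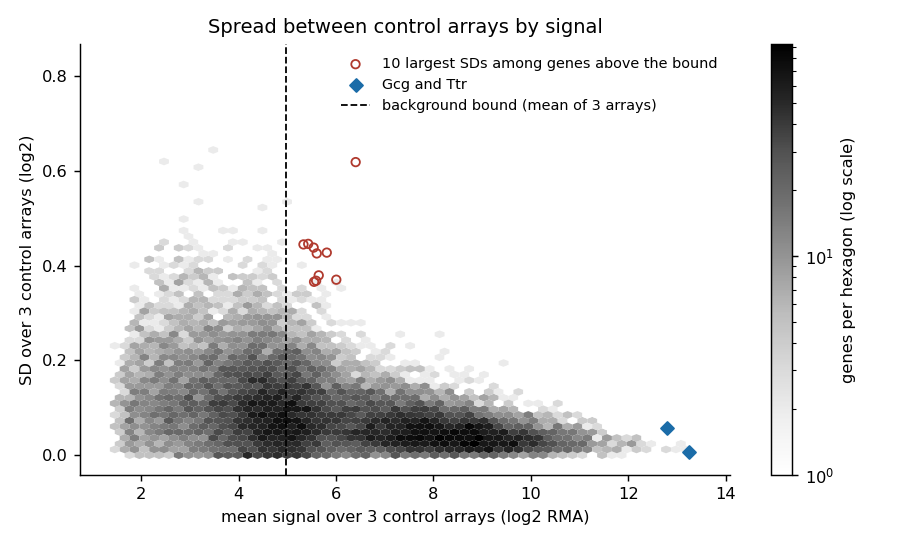
SD over the 3 control arrays against mean signal for 22180 genes, as hexagons shaded by the number of genes on a log scale. Circles mark the 10 largest SDs among genes above the bound and diamonds Gcg and Ttr; the spread narrows with signal, with a median SD of 0.13 in the lowest and 0.035 in the highest decile.

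Probe sets of a gene could disagree. Of 1073 distinct list genes 78 had more than 1 probe set, and in 24 of these the brightest probe set was above the bound while the dimmest was not. Rb1, the retinoblastoma gene, read 9.16 on its brighter probe set and 2.49 on the other, Got2 11.75 and 5.41, Kcna4 8.87 and 3.41, Syp 9.49 and 4.36, and Syt4 10.03 and 4.93. Among markers, the alpha marker Kcnj3 had a second probe set at 4.22, the beta marker Gng12 at 3.58, Cd9 at 4.79 and Col1a2 at 3.88, each under the bound. The values given for these genes are those of the brighter probe set.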

How the data were processed

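Material prepared from the RNA of the 3 control samples was labelled with biotin and hybridised to whole-transcript Affymetrix Mouse Gene ST arrays by the authors. They deposited log2 signals made with RMA, which corrects background, normalizes arrays by quantiles and summarises the probes of a set. The RMA version is not given in the sources used here. Quantile normalization gives each array nearly the same distribution, so an array-wide difference in RNA content cannot be seen. Precision is limited by the number of arrays.

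Of 41345 probe sets, the platform annotation gave 1 gene symbol to 23521, several to 1820 and none to 16004. Probe sets of 1 symbol were kept, and where a gene had several (1082 genes) the one with the highest mean over the control arrays stood for it, which left 22180 genes. Percentiles and ranks were taken within each array, and mean and SD over the 3. No difference between groups was computed and no p-value is given. Olfactory and vomeronasal receptor genes (symbols beginning Olfr or Vmn) set the background bound at their 95th percentile on each array, and the 99th served as a stricter bound. Whether the rule separates present from absent transcripts in these cells was not tested. Promoter windows and gene types came from RefSeq on GRCm38.p6. Pandas 2.3.3, numpy 2.4.6 and matplotlib 3.10.9 were used under Python 3.11.15.

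Members and the 25 gene lists were chosen with earlier results of these data known. Named genes were Gcg and Ttr, the 30 brightest genes, up to 10 brightest members of each list, all markers of other cell types above the bound, up to 6 members of a list with a textbook role in alpha cells or a textbook absence from them, and up to 10 genes with the largest SD among those above the bound. ND6, Syp, the genes named for a disagreeing second probe set, Rb1, Slc18a2, Sytl4, Cadps2, Kdelr3, the dim exocrine, leukocyte and plasma protein genes and the genes named in the closing section lie outside this rule and were chosen after their values were seen. Of the listed genes, 112 entries had no probe set of a single symbol and were not analysed here. The alternatives tried were the stricter bound, the array median as bound, 2 of 3 arrays above the bound, the mean of all probe sets of a gene, a quantile normalization of the control arrays alone, leaving out each array, and percentiles among all probe sets or among genes above the bound.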

Additional observations from a re-analysis of the deposited data

Results flagged for a closer look

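Signal was also present in probe sets that carry no single gene symbol. Of 16004 probe sets without a gene symbol, 5852 were above the background bound on all 3 control arrays, and 3289 were above the stricter bound. Of 1820 probe sets with several symbols, 1011 were above the bound, 55.5%. These probe sets were outside the gene ranks, and what they measure was not examined.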

How the results depend on the processing

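No paired analysis was possible because the results come from no test and from a single group. Of 227 recomputed values 210 stayed within 1.5 times the main count or within 1 SD of the main value. With the mean of all probe sets of a gene, 22 of the 30 brightest genes remained in that set, within this limit. Leaving out control replicate 1, 2 or 3 moved none past these limits. Quantile normalization also moved none of its 29 values, but RMA had already normalized the arrays by quantiles, so little could move. The total of 210 therefore includes values that could hardly change. Of the 17 values past the limits, 11 came from the 99th percentile bound, which left 15 within them. With the 99th percentile of the receptor genes as bound, the members above it were 7 for beta cell markers, 4 for delta, PP and epsilon, 3 for exocrine and ductal, 1 for endothelial, 0 for immune and 1 for fibroblast and stellate markers, 7 for hormones, 18 for G protein-coupled receptors, 19 for potassium channels, 23 for calcium channels and pumps and 5 for plasma proteins. With the array median as bound, 2 endothelial and 2 immune markers were above it. Both bounds lie higher than the main one. The percentile of Gcg was 99.976 among all probe sets and 99.984 among genes above the bound, and that of Ttr 99.875 and 99.888. Signals between the bounds do not settle whether a transcript is present.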

Other observations

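Some signals outside the lists were high. Long noncoding RNAs with strong signals on all 3 arrays were Malat1, a nuclear RNA, with 11.14, 11.13 and 11.12, Norad with 10.84, 10.79 and 10.77, and Tug1 with 10.25, 10.27 and 10.28. Meg3, a long noncoding RNA of an imprinted locus, was low with 5.41, 5.52 and 5.42.

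Hairpin probe sets do not measure mature microRNAs. The hairpin of Mir375, a microRNA abundant in islet cells, read 6.85, 7.06 and 6.77, above the stricter bound, while that of Mir7b read 5.28, 5.18 and 5.03 and that of Mir7-2 4.04, 4.09 and 4.30, the last under the bound.

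Of the 1394 receptor genes that set the background, 56 were above their own 95th percentile on all 3 arrays and 3 exceeded a signal of 7. Vmn1r233, annotated as a vomeronasal receptor gene, read 11.09, 11.13 and 11.02, at percentile 99.1, on the brighter of 2 probe sets, and the dimmer one averaged 2.63, at background. Olfr1360 averaged 7.92 ± 0.06 and Olfr484 7.72 ± 0.19 (SD, n = 3).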
